A study of Mus musculus with 10 samples.

Results

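Laminins were examined in liver epithelial cells sorted from mice with Smad4 deleted in the liver and from control mice. The 9 genes were picked by their symbols, with earlier results of these data known. They were the alpha chains Lama1, Lama2, Lama3, Lama4 and Lama5, the beta chains Lamb1, Lamb2 and Lamb3, and the gamma chain Lamc1. These were 9 of the 49568 genes listed in the deposited table, and all 9 passed the minimum mean of 10 normalized counts over the 10 mice, as did 14870 genes in all. Lamc3, a gamma chain outside the chosen set, is given beside it.

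The study asked what loss of Smad4, the shared partner of the SMAD proteins activated by TGFβ and BMP receptors, does to cholangiocytes that respond to bile duct injury. The Smad4del cohort (5 mice, A5216, A5217, A5218, A5447 and A5624) is labelled Smad4fl/fl, and by the study's methods carried Alb-Cre, a Cre recombinase under the albumin promoter that acts in hepatocytes and in bile duct cells that share their embryonic origin. The Ctl cohort (5 mice, A5215, A5219, A5221, A5626 and A5628) is labelled Smad4wt/wt and by the methods lacked Alb-Cre, so that the cohorts differed in Cre as well as in Smad4. Both cohorts were of mixed genetic background and ate chow with 0.1% DDC, a porphyrin-forming toxin that injures bile ducts, for 2 weeks. Live cells positive for EPCAM and negative for CD45 and TER119 were then sorted from each liver and their amplified RNA was sequenced. Age and sex are not given in the sources used here, nor which mice were litter mates, though the methods state that litter mates served as controls when this could be done. Although the labels carry a cell line field, its entries are the mouse numbers.

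A laminin is a heterotrimer of 1 alpha, 1 beta and 1 gamma chain, in many forms cross-shaped. Many but not all laminins polymerise on the cell surface into the first layer of a basement membrane. The globular end of the alpha chain binds integrins and dystroglycan, so the alpha chain largely sets which receptors are engaged. In epithelia the alpha-3 and beta-3 chains (Lama3, Lamb3) belong to the laminin of hemidesmosomes, alpha-5 pairs with beta-1 or beta-2 and gamma-1 in mature epithelial and vascular membranes, alpha-4 is typical of vessels, alpha-2 of muscle, nerve and mesenchyme, and alpha-1 of the embryo. Around bile ducts a laminin-rich basement membrane separates the epithelium from the portal mesenchyme, and the ductular reaction carries laminin with it.

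The table held 16734672 to 19710560 reads on genes in Smad4del mice and 16249719 to 21277339 in Ctl mice. Smad4 itself averaged 877 ± 144 normalized counts in Smad4del mice and 3389 ± 347 in Ctl mice (SD, n = 5 each), a log2 fold change of -1.96 with no overlap between cohorts. Across all 14870 genes tested with limma on log2(normalized count + 1), 697 were lower (4.69%) and 362 higher (2.43%) in Smad4del at an adjusted p under 0.05. These counts became 639 lower and 626 higher with each mouse scaled to its median, and 607 lower and 579 higher with quantile scaling. Cholangiocyte markers were abundant in every mouse, summing to 715884 to 875451 normalized counts in Smad4del and 512176 to 714135 in Ctl mice. Every Smad4del sum was above every Ctl sum, with 2 of the 14 markers called higher and 1 lower. Spp1 was the most abundant, and none of the 14 was at 0 in any mouse. Markers of other cell types were present too. The 10 hepatocyte markers summed to 26614 to 64175 in Smad4del mice and 20903 to 39076 in Ctl mice, ranges that overlapped, with 0 called higher or lower. The 18 endothelial markers summed to 9962 to 20755 in Smad4del mice and 27915 to 79978 in Ctl mice, with 16 of the 18 called lower, and the 14 stellate and fibroblast markers to 8860 to 15657 against 18311 to 49756, with 1 called lower. Macrophage markers ranged from 3078 to 78408 in Smad4del mice and from 12359 to 269267 in Ctl mice, the highest being Ctl mouse A5215.

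Lama3 was the chain among the 9 that was called different between the cohorts. It encodes the alpha-3 chain and lies on chromosome 18 at 12333819 to 12583013 (GRCm38, plus strand), the chromosome that also carries Smad4, 61.1 Mb away. The normalized count of Lama3 was 65.3, 35.9, 30.4, 123 and 116 in Smad4del mice A5216, A5217, A5218, A5447 and A5624. It was 372, 385, 362, 439 and 606 in Ctl mice A5215, A5219, A5221, A5626 and A5628. Every Smad4del mouse was below every Ctl mouse. The mean was 74.0 ± 43.4 in Smad4del and 433 ± 101 in Ctl mice (SD, n = 5 each), so that the Ctl mean was 5.85 times the Smad4del mean. On the log2 scale Lama3 fell by 2.72 (SE 0.381, 95% interval -3.56 to -1.89, limma adjusted p = 0.00263), and the exact two-sided permutation test of the means gave p = 0.00794, the smallest that 5 against 5 mice allow. In the mice with recovered reads the values rested on 30 to 133 reads in Smad4del and 342 to 546 reads in Ctl libraries. Of all genes tested, 164 had a lower log2 fold change than Lama3, and 1.11% lay at or below it. In a bulk library fewer cells that make a transcript and less transcript per cell cannot be told apart.

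**Figure D1:**
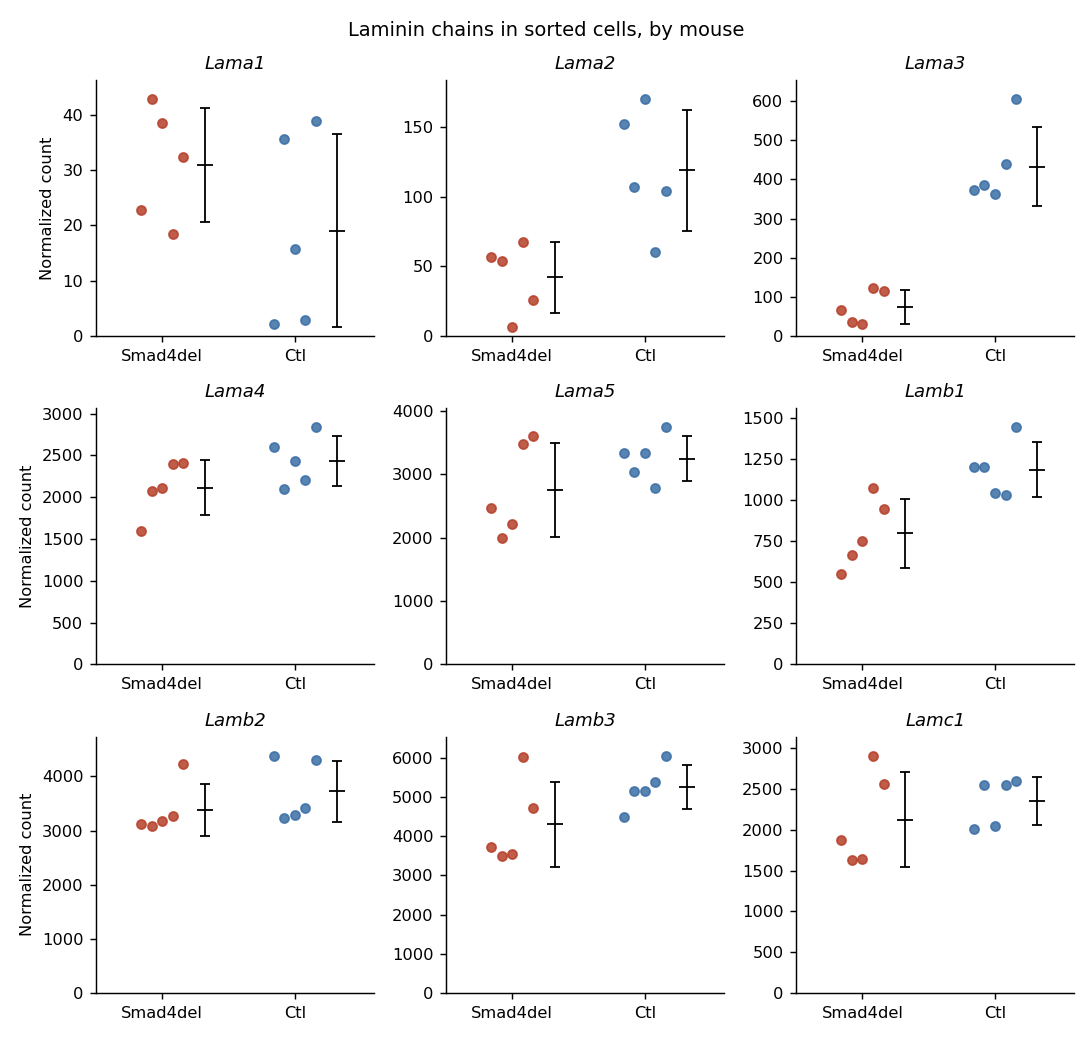
Normalized count (linear axis from 0) of each of the 9 laminin chains in Smad4del mice (left, red) and Ctl mice (right, blue), 1 point per mouse, with the mean and SD of 5 mice as a bar beside the points. Lama3 is the panel in which the cohorts do not overlap, with Smad4del mice between 30.4 and 123 and Ctl mice between 362 and 606.

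Of the 9 chains, 1 was called lower in Smad4del (Lama3, against 4.69% of all genes tested), 0 were called higher (against 2.43%) and 8 were not called. No chain was called higher by edgeR or DESeq2 either, and none was higher at an unadjusted limma p under 0.05, while 3 were lower at that level. The share of all genes at that unadjusted level is not given here. These counts, and those of the lists below at that level, therefore have no background beside them. Only Lama3 had every Smad4del mouse below every Ctl mouse, a pattern shown by 4.59% of the genes tested. The mean was lower in Smad4del for 8 of the 9 chains and higher for Lama1, and the median log2 fold change of the 9 was -0.27 beside -0.0050 over all genes tested.

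Among the other alpha chains, Lama4 and Lama5 carried most of the alpha-chain RNA. Lama5, the alpha-5 chain of mature epithelial basement membranes, had 2473, 2002, 2210, 3478 and 3605 normalized counts in Smad4del mice A5216, A5217, A5218, A5447 and A5624, against 3326, 3038, 3339, 2789 and 3741 in Ctl mice A5215, A5219, A5221, A5626 and A5628. Smad4del mice A5447 and A5624 lay inside the Ctl range and the other Smad4del mice below it. The log2 fold change was -0.27 (SE 0.164, 95% interval -0.63 to 0.09, limma adjusted p = 0.301). Lama4, the alpha-4 chain, averaged 2116 ± 332 in Smad4del and 2434 ± 299 in Ctl mice (SD, n = 5 each), with ranges of 1593 to 2415 and 2094 to 2839 that overlapped. Its log2 fold change was -0.21 (95% interval -0.48 to 0.07, limma adjusted p = 0.301). Neither chain was called in any of the alternatives tried.

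Lama2 and Lama1 were low in both cohorts. Lama2, the alpha-2 chain of muscle and mesenchymal membranes, had 57.0, 53.9, 6.09, 67.2 and 26.1 normalized counts in Smad4del mice, against 152, 107, 170.3, 60.4 and 104 in Ctl mice, in the mouse order used above. Ctl mouse A5626 lay inside the Smad4del range and the other Ctl mice above it. The log2 fold change was -1.76 (SE 0.581, 95% interval -3.02 to -0.49), with a limma adjusted p of 0.0828 and an exact permutation p of 0.0159. DESeq2 on the recovered reads called Lama2 lower (adjusted p = 0.0261, and 0.0420 without mouse A5217) in a fit that called 8.36% of its genes lower and 5.66% higher, and edgeR did not (adjusted p = 0.103). Stellate and fibroblast markers, whose sums did not overlap between cohorts, moved the same way as Lama2, and their part in it was not tested. Lama1, the embryonic alpha-1 chain, had 22.8, 42.9, 38.5, 18.4 and 32.4 normalized counts in Smad4del mice, against 2.18, 35.7, 15.7, 2.88 and 38.9 in Ctl mice. Ctl mice A5215, A5221 and A5626 lay below all Smad4del mice and the other Ctl mice among them, and the log2 fold change was 1.30 (95% interval -0.34 to 2.93, limma adjusted p = 0.282). The Ctl libraries held 2 to 42 reads of Lama1, a wider spread than the 20 to 38 of 4 Smad4del libraries. A5217, the Smad4del mouse with the highest normalized count (42.9), is left out of these reads. The log2 fold change was 0.70 by edgeR and by DESeq2, also not called (adjusted p = 0.558 and 0.567).

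The beta chains were led by Lamb3 and Lamb2. Lamb3, the beta-3 partner of Lama3, had 3721, 3493, 3556, 6010.5 and 4725 normalized counts in Smad4del mice, against 4501, 5154, 5141, 5378 and 6054 in Ctl mice. Smad4del mouse A5447 was near the highest Ctl mouse, whereas A5216, A5217 and A5218 were below all Ctl mice. The log2 fold change was -0.31 (SE 0.147, 95% interval -0.63 to 0.0087), and the limma adjusted p was 0.193 with all mice and 0.0369 without A5447, where the log2 fold change was -0.44. Lamb2, the beta-2 chain, averaged 3379 ± 484 in Smad4del and 3723 ± 572 in Ctl mice (SD, n = 5 each), a log2 fold change of -0.14 (95% interval -0.40 to 0.13, limma adjusted p = 0.486).

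Lamb1, the beta-1 chain of vascular, embryonic and many epithelial laminins, lay closest to a call among the 8 remaining chains. It had 549.5, 669, 749, 1076 and 945 normalized counts in Smad4del mice, against 1201, 1204, 1042, 1031 and 1444 in Ctl mice. Smad4del mouse A5447 reached into the Ctl range, and the other Smad4del mice were below all Ctl mice. The log2 fold change was -0.60 (SE 0.175, 95% interval -0.98 to -0.22) with a limma adjusted p of 0.0587 and an exact permutation p of 0.0238. Lamb1 was called lower without A5447 (log2 fold change -0.72, adjusted p = 0.0251), with the mouse number series as a term (limma adjusted p = 0.0353) and by DESeq2 on all mice (adjusted p = 0.0242), but not by DESeq2 without A5217 (adjusted p = 0.0886) or by edgeR (adjusted p = 0.0734). Endothelial markers, 16 of 18 lower in Smad4del, moved the same way as Lamb1. Lama4, the chain typical of vessels, changed less than Lamb1 and was not called (log2 fold change -0.21, limma adjusted p = 0.301). The part of endothelial cells in either chain was not tested.

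The promoters of Lamb1 and Lamb3 are shown because Lamb1 was the beta chain whose share differed and Lamb3 is the partner of Lama3. They span 250 bases before to 50 after a transcription start (RefSeq, GRCm38.p6, plus strand, chr12:31265043-31265342 for Lamb1 and chr1:193301744-193302043 for the first of the listed Lamb3 starts). Capitals mark CAGAC on either strand, a core element bound by SMAD4.
Lamb1: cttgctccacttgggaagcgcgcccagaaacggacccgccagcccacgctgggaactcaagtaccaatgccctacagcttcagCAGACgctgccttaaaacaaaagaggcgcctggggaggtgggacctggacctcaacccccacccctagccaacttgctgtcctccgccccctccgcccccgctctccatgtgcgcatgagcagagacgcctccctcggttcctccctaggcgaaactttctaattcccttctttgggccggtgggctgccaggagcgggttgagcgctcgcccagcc
Lamb3: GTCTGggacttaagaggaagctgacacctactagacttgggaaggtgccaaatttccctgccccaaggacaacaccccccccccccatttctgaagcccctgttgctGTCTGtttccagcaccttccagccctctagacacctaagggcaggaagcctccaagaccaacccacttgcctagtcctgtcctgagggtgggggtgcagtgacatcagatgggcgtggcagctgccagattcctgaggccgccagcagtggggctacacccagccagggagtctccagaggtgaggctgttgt
The Lamb1 window held 1 CAGAC and this Lamb3 window 2, counting both strands, and 49.6% of all 32851 promoters of the same length held at least 1. TGANTCA, the AP-1 element, whose end can overlap the start of CAGAC, was in neither window and in 7.81% of all promoters. Promoters were searched for 5 of the 9 chains (Lama2, Lama5, Lamb1, Lamb2 and Lamb3), and each of these held 1 or 2 CAGAC and no TGANTCA. The promoter of Lama3 was not among those searched. A match in letters is a description and says nothing of binding.

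Lamc1, the gamma-1 chain shared by most laminins, averaged 2124 ± 581 normalized counts in Smad4del and 2355 ± 296 in Ctl mice (SD, n = 5 each). Its ranges of 1631 to 2910 in Smad4del and 2011 to 2599 in Ctl mice overlapped, with Smad4del mice on both sides of the Ctl mice, and the log2 fold change was -0.18 (95% interval -0.55 to 0.19, limma adjusted p = 0.510). Lamc3, a gamma-3 chain of nerve and vascular membranes, had 400.2, 223, 435, 272 and 313 normalized counts in Smad4del mice, against 866, 942, 574, 456 and 830.4 in Ctl mice. Every Smad4del mouse was below every Ctl mouse, and Lamc3 fell by 1.15 on the log2 scale (SE 0.238, limma adjusted p = 0.0172). Endothelial marker sums were lower in Smad4del mice too. Within each cohort the mouse with the lowest sum, Smad4del mouse A5218 (9962) or Ctl mouse A5219 (27915), had the highest Lamc3. In contrast, Smad4del mouse A5217 had a low sum (10493) and the lowest Lamc3 of its cohort. Ctl mouse A5215 had the highest sum (79978) and the next highest Lamc3 after A5219. The part of endothelial cells in the Lamc3 change was not tested.

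**Figure D2:**
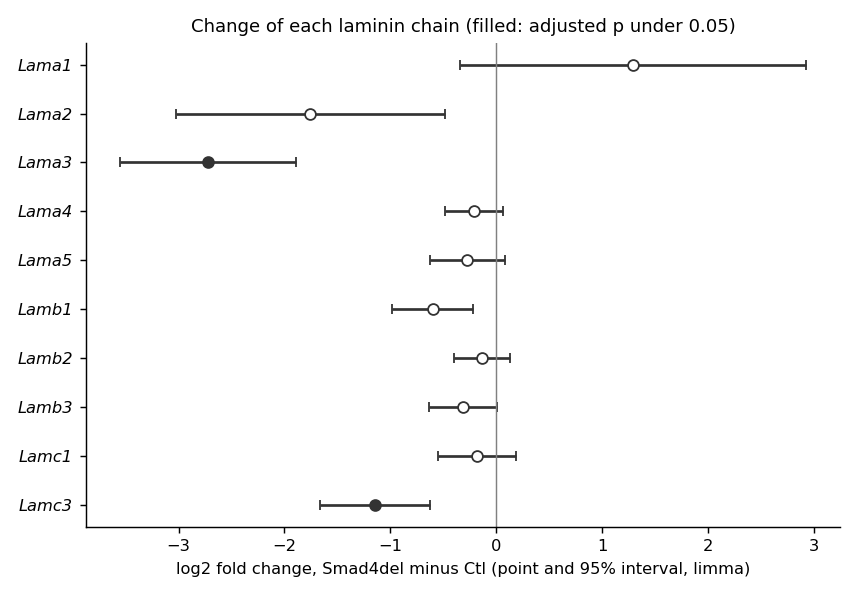
Log2 fold change, Smad4del minus Ctl, of each laminin chain (point) with its 95% interval (bar) from the limma fit of 5 against 5 mice, filled where the adjusted p was under 0.05. Lama3 at -2.72 and Lamc3 at -1.15 are filled, and the intervals of Lama2 and Lamb1 lie below 0 without an adjusted p under 0.05.

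The difference in Lama3 was larger than that in Lamb3, the beta chain it assembles with. The log2 ratio of Lama3 to Lamb3 was 2.43 lower in Smad4del, at -6.05 ± 0.652 in Smad4del and -3.62 ± 0.193 in Ctl mice (SD, n = 5 each). The log2 ratio to Epcam, the surface protein used for sorting, was -8.67 ± 0.928 in Smad4del and -5.78 ± 0.329 in Ctl mice, a difference of -2.88. Both ratios, which were chosen after the levels had been seen, gave an exact permutation p of 0.00794, also after Benjamini-Hochberg adjustment over the 2. Lama3 was at most 123 in Smad4del and at least 362 in Ctl mice, while Lamb3 stayed between 3493 and 6054. The ratio to Lamb3 therefore could not overlap between cohorts, and its p was fixed by the levels already seen. The ratio to Epcam rests on the same Lama3 values, so neither p adds to the Lama3 test. Smad4del mouse A5447 illustrates the separation, with 6010.5 normalized counts of Lamb3 and 123 of Lama3, against 6054 of Lamb3 and 606 of Lama3 in Ctl mouse A5628. The 16 lower endothelial markers moved the same way as Lama3 between the cohorts. The endothelial sum was 15383, 10493, 9962, 16232 and 20755 in Smad4del mice A5216, A5217, A5218, A5447 and A5624, against 79978, 27915, 43622, 44866 and 43662 in Ctl mice A5215, A5219, A5221, A5626 and A5628. Within Smad4del the mice with the higher sums, A5447 and A5624, also had the higher Lama3 levels, whereas within Ctl the mouse with the highest sum, A5215, was not among those with the highest Lama3. The part of these cells in the Lama3 difference was not tested.

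**Figure D3:**
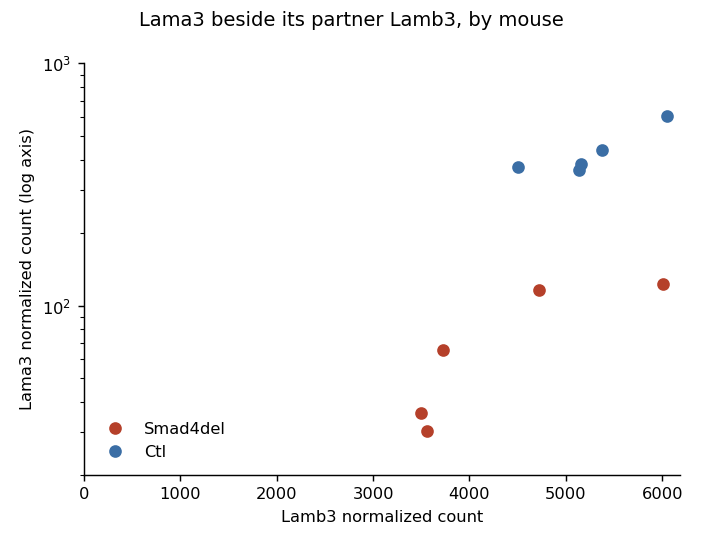
Lama3 normalized count (log axis) against Lamb3 normalized count (linear axis from 0), 1 point per mouse, Smad4del in red and Ctl in blue. The Smad4del mice have between 30.4 and 123 counts of Lama3, also where Lamb3 is at Ctl levels, and the Ctl mice between 362 and 606.

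Levels were compared between chains after division by exon length (normalized counts per kb of merged exons). Lamb3 was the most abundant of the 9 chains in both cohorts, at 650.5 ± 163 per kb in Smad4del mice and 793 ± 84.4 per kb in Ctl mice (SD, n = 5 each). Among the 9 chains the order in Smad4del mice was Lamb3, Lamb2, Lamc1, Lama5, Lama4, Lamb1, Lama3, Lama1 and Lama2, and in Ctl mice Lamb3, Lamb2, Lama5, Lamc1, Lama4, Lamb1, Lama3, Lama2 and Lama1. In Smad4del mice the neighbours Lamb2 and Lamc1, Lama4 and Lamb1, and Lamb1 and Lama3 had ranges apart, and the other neighbours overlapped. In Ctl mice the overlapping neighbours were Lamb3 and Lamb2, Lama5 and Lamc1, and Lama2 and Lama1. Lama3 stood at 6.89 ± 4.04 per kb in Smad4del mice, where its range overlapped that of Lama1, and at 40.3 ± 9.44 per kb in Ctl mice, apart from both its neighbours. In both cohorts Lama3 was therefore far below Lamb3 per kb.

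As a share of the alpha-chain sum per kb, Lama3 made up 1.52 ± 0.644% in Smad4del and 7.49 ± 1.28% in Ctl mice (SD, n = 5 each). By mouse the share was 1.68, 0.933, 0.754, 2.19 and 2.03% in Smad4del, against 6.28, 7.36, 6.23, 8.65 and 8.95% in Ctl, with no overlap. The difference of -5.98 percentage points had an exact permutation p of 0.00794, or 0.0317 after adjustment over the 8 alpha and beta shares. Lama5 and Lama4 made up the bulk, at 55.8 ± 5.09% and 41.3 ± 5.41% in Smad4del mice and 53.2 ± 1.32% and 37.6 ± 1.33% in Ctl mice. Their shares did not differ beyond the spread between mice (exact permutation test, adjusted p = 0.327 each). Lamb1 took 6.19 ± 0.793% of the beta-chain sum in Smad4del and 7.82 ± 0.601% in Ctl mice, a difference of -1.63 points with ranges that did not overlap (exact permutation test, adjusted p = 0.0317). The other 5 shares had adjusted p-values of 0.106 to 0.476. With 1 mouse left out only 126 splits are possible, and the adjusted p of the Lama3 and Lamb1 shares was then 0.0212 to 0.0635, under 0.05 only without A5447 or without A5626, while the Lama3 difference ranged from -6.29 to -5.61 points.

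**Figure D4:**
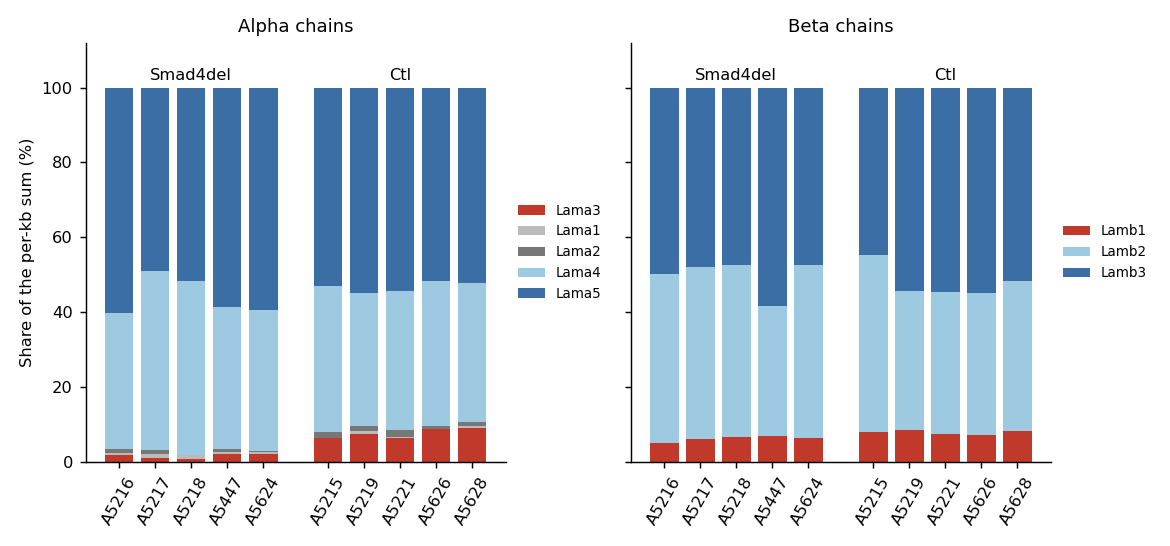
Share of each alpha chain in the alpha-chain sum (left panel) and of each beta chain in the beta-chain sum (right panel), in percent of normalized counts per kb, 1 stacked bar per mouse, Smad4del mice left and Ctl mice right. The red segment at the foot is Lama3 (0.754 to 2.19% in Smad4del, 6.23 to 8.95% in Ctl) or Lamb1 (4.90 to 6.98% in Smad4del, 7.03 to 8.48% in Ctl).

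Mice numbered A52xx and mice numbered A54xx or A56xx differed in several chains, although the labels do not call these numbers batches. Lama3 averaged 43.9 in Smad4del and 373 in Ctl mice of the A52xx numbers (3 against 3), a log2 difference of -3.14. Among the later numbers (2 against 2) it averaged 119 in Smad4del and 523 in Ctl mice, a log2 difference of -2.11. Lama3 was therefore higher in the later numbers in both cohorts, and the cohorts did not overlap within either series. The log2 differences were -0.82 and -0.28 for Lamb1, -2.32 and -0.90 for Lama2 and -0.46 and -0.10 for Lamb3, in the A52xx and the later numbers in turn. Lama5 and Lamc1 had differences of -0.54 and -0.36 in the A52xx numbers and of 0.13 and 0.08 in the later ones. The difference between the series was not tested. With the number series as a term in the limma fit, Lama3 kept its call (adjusted p = 0.000645).

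After the cohort means were removed, several chains had similar deviations from mouse to mouse. On the log2 scale over the 10 mice, Pearson's r was 0.93 between Lamb3 and Lamc1, 0.91 between Lama3 and Lamc1, 0.89 between Lama3 and Lama5 and 0.87 between Lama3 and Lamb3. It was 0.84 between Lama4 and Lamb1, and between -0.14 and 0.16 for Lama1 with each other chain. These values describe 10 libraries that also share the number series above, and no p was computed. Among the 14870 genes, those most like Lama3 were Pik3c2a (r = 0.98), a lipid kinase, Myh9 (0.97), a non-muscle myosin heavy chain, and Fn1 (0.96), fibronectin. Those most like Lamb3 were Ptprf (0.98), a receptor phosphatase, Cdh1 (0.98), the epithelial cadherin, and Rnf20 (0.97), a ubiquitin ligase of histone H2B. Those most like Lamc1 were Met (0.97), the hepatocyte growth factor receptor, Itgav (0.95), the alpha-v integrin, and Vcp (0.94), a protein-unfolding ATPase. Those most like Lama5 were Add1, Myo1e and Tjp1 (0.97 each), proteins of the cortical cytoskeleton and the tight junction.

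Around the laminins, most of the genes looked at were not called. Of 20 other basement membrane components, 2 were called lower and 0 higher, beside 4.69% and 2.43% of all genes tested, with a median log2 fold change of -0.24. DESeq2 called 4 of them lower, in a fit that called 8.36% of its genes lower, and edgeR called 2. At an unadjusted limma p under 0.05 there were 5 lower and 1 higher. Nid1, nidogen-1, which links laminin to type IV collagen by binding the gamma-1 chain, averaged 1884 ± 406 normalized counts in Smad4del and 3646 ± 717 in Ctl mice (SD, n = 5 each), a log2 fold change of -0.96 (limma adjusted p = 0.00737). Ntn4, netrin-4, which binds gamma chains and can disturb laminin polymers, averaged 1401 ± 181 in Smad4del and 2859 ± 722 in Ctl mice, a log2 fold change of -1.002 (limma adjusted p = 0.00596). For both, every Smad4del mouse was below every Ctl mouse. No component of this list was called higher by edgeR or DESeq2 either. Both genes are also made by endothelial and mesenchymal cells. The endothelial sums and the stellate and fibroblast sums were lower in Smad4del, while the smooth muscle and mesothelial sums overlapped between cohorts. The smooth muscle sum rested mostly on Rgs5, with means of 13385 in Smad4del and 13080 in Ctl mice. The median log2 fold change was -0.95 for the 5 smooth muscle markers (1 called lower) and -0.93 for the 6 mesothelial markers (0 called). The part of any of these cell types was not tested.

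Laminin receptors showed no call. Over all genes tested, limma called 4.69% lower and 2.43% higher, and DESeq2 8.36% and 5.66%. Of 16 receptors and their partners 15 were tested, and 0 were called in either direction by limma, edgeR or DESeq2. At an unadjusted limma p under 0.05 there were 2 receptors or partners lower and 2 higher. The most abundant were Itgb1, the integrin beta-1 chain, with 12713 ± 1865 normalized counts in Smad4del and 15720.3 ± 1239 in Ctl mice (SD, n = 5 each, log2 fold change -0.31, limma adjusted p = 0.0849), and Dag1, dystroglycan, with 11069 ± 2138 in Smad4del and 11657 ± 1291 in Ctl mice (log2 fold change -0.09, 95% interval -0.37 to 0.19, limma adjusted p = 0.689). Without Smad4del mouse A5447, Itgb1 was called lower (log2 fold change -0.39, limma adjusted p = 0.0297). Of 12 enzymes that build the laminin-binding sugar of dystroglycan, limma and edgeR called 0 in either direction. DESeq2 called 0 of the enzymes lower and 1 higher, beside 8.36% and 5.66% of all its genes. The unadjusted limma p was under 0.05 for 0 enzymes lower and 1 higher. Pomgnt1 and B4gat1, the most abundant of them, had log2 fold changes of 0.05 (95% interval -0.16 to 0.27) and -0.10 (95% interval -0.30 to 0.09). Of 9 proteases that cut laminin chains or their precursors, 1 was called lower and 0 higher, beside 4.69% and 2.43% of all genes tested, and 8 of the 9 had a lower mean log2 value in Smad4del. DESeq2 called 3 lower (2 without A5217), in a fit that called 8.36% of its genes lower, and edgeR called 1 (0 without A5217). Limma with the number series as a term called 3, and limma without A5216, A5447 or Ctl mouse A5628 called 2 each. At an unadjusted limma p under 0.05, 4 proteases were lower. The called one was Bmp1, a metalloprotease that trims laminin and collagen precursors, with 1271 ± 154 normalized counts in Smad4del and 1925 ± 302 in Ctl mice (log2 fold change -0.59, limma adjusted p = 0.0168), and it was not called by edgeR without A5217 (adjusted p = 0.0626). None of the 9 was called higher by edgeR or DESeq2, and none was higher at an unadjusted limma p under 0.05.

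**Figure D5:**
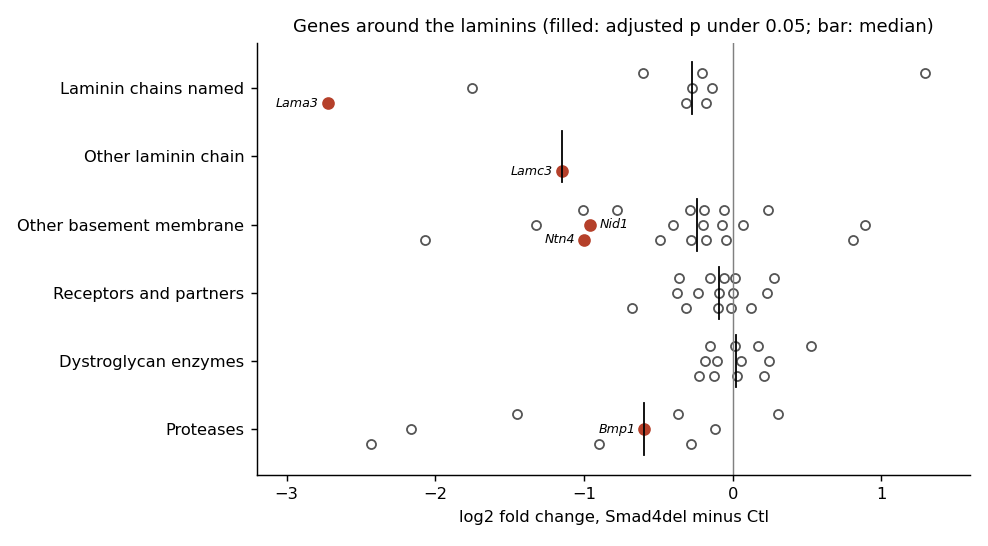
Log2 fold change, Smad4del minus Ctl (limma, 5 against 5 mice), of the 9 laminin chains, of Lamc3 and of 4 lists of related genes, 1 point per gene, filled where the adjusted p was under 0.05, with the list's median as a vertical bar. Lama3 lies farthest to the left, and Lamc3, Nid1, Ntn4 and Bmp1 are the other filled points.

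Gene models limit these values in known ways. Lama3 has 2 protein-coding transcripts in the annotation, which a count per gene cannot separate. Its exons overlap Gm29200 on the opposite strand, which had at most 7.40 normalized counts in any mouse, and the counting was not stated to use strand.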

How the data were processed

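RNA from sorted cells of 10 mice was amplified with a SMART-Seq v4 kit and sequenced by the authors as single reads. The authors cleaned the reads (Trimmomatic 0.36), mapped each mouse to GRCm38.p5 (STAR), made gene counts (featureCounts) and divided the counts by DESeq2 1.14.1 size factors in R 3.3.2. The study's methods name a count of unique reads and another with multi-mapping reads, without saying which was deposited. The deposited values are this normalized signal, not corrected for gene length. In every mouse 100% of them were whole multiples of the value of 1 read (tolerance 1e-06), which gave back the reads, although recovery is not claimed for A5217, where 1 read is worth 0.998.

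The 9 members and all gene lists were chosen with earlier results of these data known. Genes with a mean of at least 10 were tested with limma 3.58.1 (trended prior, R 4.3.3) on log2(normalized count + 1), where fold changes of low chains depend on the model (the closing section gives their range), and p-values were adjusted by Benjamini-Hochberg over all genes tested with a threshold of 0.05. Single values were compared by exact two-sided permutation of the mice (252 splits, scipy 1.17.1 used to check the code). The p-values measure the spread between mice. Alternatives were pseudocounts of 0.5 and 10, a minimum mean of 50 and none, a robust prior, scaling by quantiles and by the median, the mouse number series as a term, each mouse left out, and edgeR 4.0.16 and DESeq2 1.42.0 on the recovered reads. Exon lengths came from GENCODE annotation of GRCm38. The code was tested on simulated data. Named genes were all members, Lamc3 and Smad4, up to 4 called genes of each list with the smallest p (or the 2 most abundant where none was called), and the 3 genes most correlated with each member. 1 gene of the lists is not reported here.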

Additional observations from a re-analysis of the deposited data

Results flagged for a closer look

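In 22 cohorts of 5 mice (11 genes, both cohorts), 1 value stood apart by Dixon's criterion, whose 95% limit for 5 values is 0.71 and which chance exceeds in about 1 in 20 cohorts. Lamb2 was at 4236 normalized counts in Smad4del mouse A5624, while the other Smad4del mice lay between 3089.7 and 3267, a gap of 0.845 of the range. Ctl mice spanned 3228 to 4385, so this value was within their range. Without A5624 the Lamb2 log2 fold change was -0.22 (limma adjusted p = 0.235).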

How the results depend on the processing

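Lama3 was called lower in all 22 alternatives, with log2 fold changes from -2.96 to -2.36 and adjusted p-values of at most 0.0152. No chain changed direction in any of them. The number of chains called lower was 1 as reported, 2 with the number series as a term (Lamb1 added), 3 with DESeq2 (Lamb1 and Lama2 added), 2 with DESeq2 without A5217 (Lama2 added) and 1 to 3 with 1 mouse left out, the 3 being without A5447 (Lamb1 and Lamb3 added). Of the 58 related genes, 57 of which limma tested, DESeq2 called 8 lower and 1 higher, and 7 lower without A5217, against 4 and 0 by limma. Over all genes tested DESeq2 called 8.36% lower and 5.66% higher, against 4.69% and 2.43% by limma. Over all genes, against 697 lower and 362 higher, higher calls were 209 with no minimum, 579 with quantile scaling and 626 with median scaling. DESeq2 called 1374 lower and 930 higher, and edgeR without A5217 278 and 95. With 1 mouse left out there were 329 to 852 lower calls, the lowest without A5217 (329), A5218 (364), A5221 (381) or A5215 (462). Higher calls ranged from 105 to 563 (105 without A5217, 145 without A5218, 160 without A5221, 197 without A5624, 206 without A5215 and 563 without A5447). The Lama3 share differed by -6.29 to -5.61 points with 1 mouse left out, past the adjusted threshold only without A5447 or A5626. The cause of these changes was not tested, except that leaving out a mouse leaves fewer samples. No paired analysis was possible because the mouse numbers are not shared between cohorts and no source says which mice were litter mates. Lama1 and Lama2 rested on as few as 2 and 6 reads in a library, and their log2 fold changes ranged from 0.55 to 1.88 and from -2.01 to -1.20 over the alternatives. Cre and Smad4 status cannot be told apart in this design.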

Other observations

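The chains not described above by likeness had other neighbours over the 10 mice after removal of the cohort means (Pearson's r on the log2 scale, the best 3 of 14870 genes, with no p). Lama4 was most like Pcdhga5 (0.98), a protocadherin, Arfgef2 (0.98), an exchange factor of vesicle traffic, and Shank2 (0.96), a scaffold protein. Lamb1 was most like Rmdn3 (0.96), Tmppe (0.95) and Xpnpep1 (0.95). Lamb2 was most like Fzr1, Wisp1 and Man1a (0.91 each). Lama1 was most like Ccl20 (0.94), a chemokine, Tmc7 (0.94) and Tardbp (0.93), and Lama2 was most like Samd8, 2700038G22Rik and Pcdhb11 (0.96 each). Lama1 and Lama2 are low genes, so their likeness carries counting error.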
